A study of Xenopus laevis with 12 samples.

Results

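The posterior neural plate (PNP) of *Xenopus laevis* embryos at stage 15, an early neurula stage, was compared with whole embryos of the same stage. The comparison took the 3 arrays titled as posterior neural plate and the 3 titled as whole embryo, which are 6 of the 12 arrays of the series, and all probe sets on them other than controls. The other arrays hold RNA of the eye field (EF, titled eye primordia, 3 arrays) and of lateral endoderm (LE, a piece of the flank, 3 arrays). By the study, the EF piece included the mesendoderm under it. The study does not say whether the PNP piece included underlying tissue. Its supplement does list *Xbra* and *derriere* as PNP genes of the mesoderm, and *cdx1* and *cdx4* as PNP genes of all germ layers. The labels name no strain, allele or treatment for any of the 4 groups. In the study the PNP stood for a neural region outside the eye field. By the methods, each array of a dissected piece took RNA pooled from many pieces, and the arrays of a group came from different days and different females. The whole embryo contains the PNP, so each difference given here sets the piece against a mixture that includes it. In bulk RNA, fewer cells of a type and less RNA per cell cannot be told apart.

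At this stage the neural plate is a sheet of thickened dorsal ectoderm that is about to roll up into the neural tube. The notochord, a rod of axial mesoderm, lies under its midline, and paraxial mesoderm, which divides into somites and gives rise to muscle, lies on both sides. At the rear end the plate and the mesoderm meet in the blastopore region, from which the tailbud forms. Sox and Zic transcription factors mark the plate along its length, whereas Cdx and Hox genes, under FGF, Wnt and retinoic acid signals, set posterior identity. Brachyury genes mark the notochord and the progenitors of the tailbud.

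Higher in PNP than in whole embryos were 15 of 26 measured genes of the Hox and Cdx list, which also holds genes such as *meis3* and *evx1*. So were 27 of 53 genes of the tailbud, 18 of 46 of the axial mesoderm, 16 of 50 of the paraxial mesoderm and 7 of 43 of the neural plate. By the same rule, an adjusted p under 0.05, 10.7% of all genes were higher. The rises of the notochord genes *not* and *admp* reached 16.4-fold and 19.0-fold. The general neural genes *sox2*, *sox3* and *ncam1* did not pass the test, and *zic1* and *pax6* were lower in PNP. In the paraxial mesoderm list, *myf5* and *msgn1* were higher and *ripply2.2* and *cxcr4* were lower.

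Values are log2 signals, the log2 of the deposited probe-set intensities, and differences are PNP minus whole embryo on that scale. Of 15491 probe sets, 521 were higher in PNP (3.36%) and 1051 were lower (6.78%), at an adjusted p under 0.05 from limma and a fold of at least 2. The median difference of all probe sets was 0.07. Centring each array on its median moved that median to 0.22 and the split to 738 higher and 901 lower, and quantile normalization gave 681 and 908, so that the share of higher calls went from 33.1% to 45.0% and 42.9%. Gene lists were described by a looser rule, an adjusted p under 0.05 with no fold limit, by which 694 of 6505 genes were higher in PNP (10.7%) and 872 were lower (13.4%). These shares are the background for each list count against whole embryos below. As a background ceiling served the highest signal of 27 bacterial control probe sets on an array, which was 2.27 to 2.77 in PNP and 2.1 to 2.24 in whole embryos. Between 61.1% and 82.0% of the tested probe sets lay above it on an array. The 1457 probe sets under the ceiling on all 6 arrays had a median difference of 0.15, and the 29 of them past an adjusted p under 0.05 were all higher, so a small rise of a dim gene may be no more than that shift. Log2 signals of single arrays correlated at r = 0.979 to 0.987 within PNP, at 0.976 to 0.982 within whole embryos and at 0.909 to 0.924 between these groups, taken over probe sets, which do not count as replicates.

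The marker genes of other tissues set the limits of the piece. Of 5 posterior markers, *hoxb9*, *hoxc6*, *hoxa7*, *hoxc8* and *cdx4*, 5 were higher in PNP, and their summed linear signal was 276 to 414 in PNP and 93.8 to 118 in whole embryos. The 6 notochord markers summed to 1465 to 1794 against 391 to 457, with 5 higher, and the 4 measured markers of paraxial mesoderm to 1291 to 1602 against 427 to 526, with 4 higher. The 5 measured markers of the neural plate did not set the piece apart, at 409 to 607 against 546 to 574, with 1 lower and the other 4 not past the test. The 6 epidermal markers fell from 4440 to 5092 in whole embryos to 135 to 173 in PNP, with 5 lower. Endodermal markers summed to 32.1 to 37.6 in PNP and 524 to 694 in whole embryos, with 5 of 6 lower. The markers of the anterior neural plate, *otx2*, *rax*, *six3* and *fezf2*, summed to 29.3 to 37.0 against 207 to 327, with 4 of 4 lower. Ciliated cells and ionocytes gave 27.9 to 35.6 against 202 to 421. The 5 blood and ventral markers differed little, at 36.0 to 46.0 against 40.5 to 46.9, with 1 higher and 1 lower. Of these, *hba3*, *tal1* and *szl* passed the ceiling on none of the PNP arrays, and 2 of the 5 passed it on none of the whole-embryo arrays. The 3 measured muscle markers gave 299 to 506 against 307 to 658, with 1 lower. Also under the ceiling on all 3 PNP arrays were *darmin* of the endoderm, *tp63* of the epidermis, *tnnc2* of muscle and *atp6v1b1* of ionocytes. The posterior markers thus bore out the posterior part of the label. The neural plate markers did not set the piece apart from whole embryos, which themselves contain neural plate. Of these markers, *sox2*, *sox3* and *ncam1* were higher in PNP than in the flank piece LE, while *sox3* and *ncam1* were lower than in EF, as given below. Markers of notochord and paraxial mesoderm were high in the same piece. The part that mesoderm in the piece has in the values of genes that both tissues use was not tested.

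**Figure D1:**
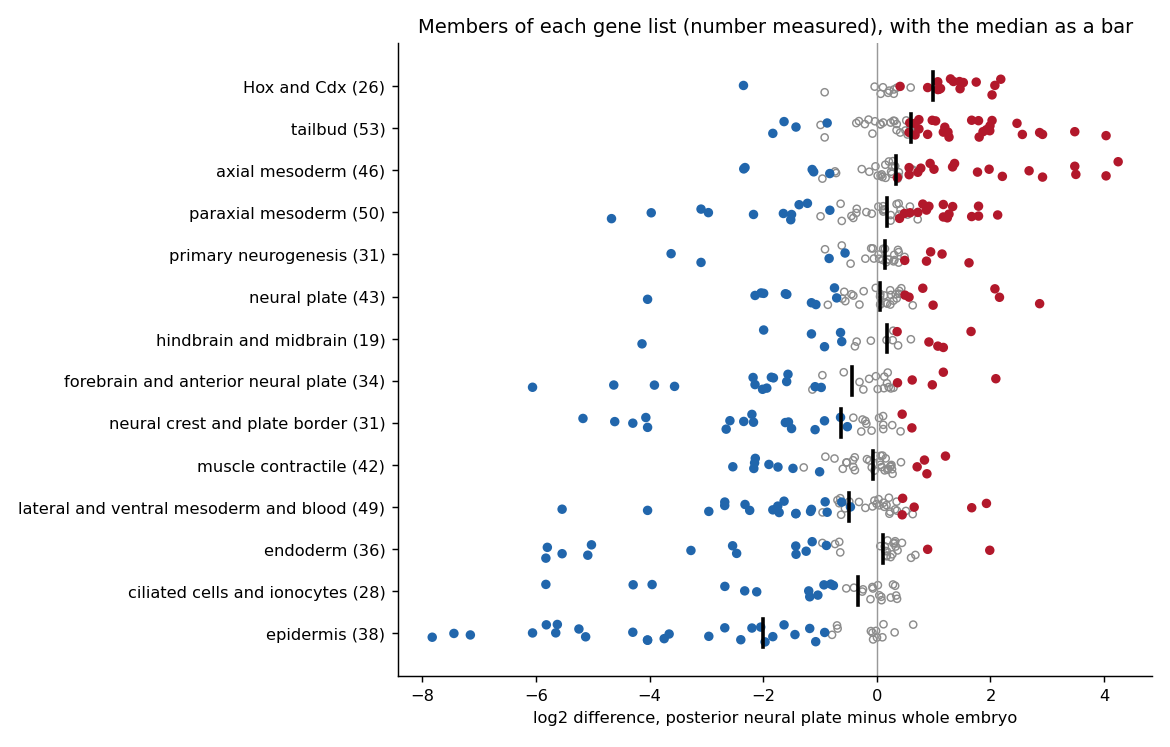
Log2 difference of PNP minus whole embryo (horizontal axis) for each measured member of 14 gene lists, with the median as a bar; red and blue points passed an adjusted p under 0.05 from limma and open points did not. The Hox and Cdx, tailbud and axial mesoderm lists lie to the right with medians of 0.98, 0.60 and 0.34, and the epidermis list lies far to the left with a median of -2.01.

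The neural plate list did not move as a whole. Of 43 measured members (58 listed, 39 above the ceiling on at least 1 of the 6 arrays), 7 were higher in PNP, 10 were lower and 26 did not pass. The median difference was 0.06 against 0.06 over all 6505 genes, of which 10.7% were higher and 13.4% lower. *sox2*, the SoxB1 factor of neural progenitors, had log2 signals of 5.08, 4.93 and 5.62 in PNP and 5.0, 4.71 and 4.93 in whole embryos, which overlap (difference 0.33, limma standard error 0.36, adjusted p = 0.537). Another probe set of *sox2* was at 0.52 with no overlap of the groups and did not pass. Its close relative *sox3* was at 5.88, 5.77 and 6.70 in PNP and 6.61, 6.74 and 6.67 in whole embryos, with PNP array 3 at the whole-embryo level and the other PNP arrays under it. *ncam1*, a cell adhesion molecule of neural cells, showed the same split, at 6.59, 6.69 and 7.90 in PNP against 7.75, 7.74 and 7.41. Neither passed, at differences of -0.55 (adjusted p = 0.0702) and -0.57 (adjusted p = 0.298), although without PNP array 3 *sox3* passed as lower at -0.85, and a probe set of the S copy of *ncam1* passed as lower at -1.40. *sox11*, a SoxC factor, had a difference of -0.61 (adjusted p = 0.0556) and passed as lower under some settings, among them with whole-embryo array 1 or PNP array 3 left out (-0.75 and -0.72). *zic2* was at 7.83, 7.68 and 7.57 in PNP and 7.42, 7.27 and 7.66 in whole embryos and did not pass at 0.25, while its other probe sets passed as higher at 1.01 and 0.74, so the call for this gene depends on the probe set.

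The members that were lower in PNP include genes of the plate border, of the anterior plate and of the intermediate plate. *msx1*, a homeobox gene of the dorsal border, fell from 6.55, 6.84 and 6.62 in whole embryos to 2.53, 2.64 and 2.73 in PNP, a fall of 16.4-fold, with 2 of the 3 PNP arrays above the ceiling. Another probe set of *msx1* was at -0.21 and did not pass. *zic1*, a zinc-finger gene of the border and the anterior plate, was at 4.06, 3.92 and 4.53 in PNP against 5.85, 5.5 and 6.0, a difference of -1.61 (standard error 0.21). *pax6*, a gene of the eye field and the neural tube, was 4.42-fold lower, with its other probe sets between -2.25 and -0.02. The Iroquois genes *irx1*, *irx2* and *irx3*, which help to make the neural plate competent for neurogenesis, were 3.98-fold, 4.11-fold and 2.22-fold lower, and *gli3*, a transcription factor of the hedgehog pathway, was 3.00-fold lower. The groups did not overlap for any of these 7 genes, which 18.3% of all genes showed in this direction.

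The members that were higher include genes of the immature plate. *foxd4l1.1*, a forkhead gene that holds neural ectoderm in an undifferentiated state in *Xenopus*, was at 8.32, 8.05 and 8.24 in PNP and 5.37, 4.92 and 5.73 in whole embryos, 7.29-fold higher. *pou5f3.2*, a relative of the mammalian pluripotency gene Oct4, was at 7.59, 7.44 and 6.66 against 5.78, 4.19 and 5.25, and rose 4.47-fold. *hes5.3*, a Hairy/Enhancer-of-split repressor, was at 5.46, 6.14 and 5.95 against 5.04, 3.25 and 3.03, a rise of 4.22-fold in which whole-embryo array 1 was far above the other 2. *gmnn* (Geminin), a regulator of DNA replication that favours neural fate in *Xenopus*, rose 1.99-fold on the probe set read, but a probe set of its S copy had a difference of -0.52 that did not pass, and with the mean of its probe sets the rise was not called.

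Primary neurogenesis, in which the first neurons leave the plate under Notch control, was close to the background. Of 31 measured members (54 listed, 25 above the ceiling on at least 1 of the 6 arrays), 5 were higher, 4 were lower and 22 did not pass, with a median of 0.14, where 10.7% of all genes were higher and 13.4% lower. Only 11 members lay above the ceiling on all 6 arrays, so a lack of signal may hide differences. Median centring raised the number of higher members from 5 to 10. The proneural gene *neurog2* (Neurogenin) was not above the ceiling in any PNP array, at 2.17, 2.19 and 2.51, and at 2.25, 2.39 and 2.54 in whole embryos. *elavl3*, an RNA-binding protein of neurons, was at 3.63, 3.33 and 3.04 against 3.12, 2.78 and 2.94, and its difference of 0.38 did not pass (adjusted p = 0.0962). Its paralog *elavl4* was at 2.63, 2.82 and 3.71 against 2.03, 2.13 and 2.15, with 1 of the 3 whole-embryo arrays above the ceiling. It was called higher at 1.93-fold, a call lost with only PNP and whole embryos in the fit (limma, adjusted p = 0.0513). *gadd45g*, a stress-related gene that is active in cells leaving the cycle, was at 7.60, 7.02 and 6.43 in PNP and 5.24, 5.25 and 5.69 in whole embryos, 3.08-fold higher, with another probe set at 0.04. The Notch ligand *dlc* rose 1.83-fold, while the ligand *dll1* spread from 5.51 to 6.98 in PNP and did not pass at -0.62. *snap25*, a protein of synaptic vesicle release, was called higher at 1.15, with its other probe sets at -0.00 and 0.10. The call was lost without whole-embryo array 3 (0.92), with the mean of its probe sets (0.42) and with only PNP and whole embryos in the fit. Of the lower members, *syt1*, a synaptic vesicle protein, was not above the ceiling in any PNP array, at 2.07, 1.92 and 2.39, and at 5.87, 5.68 and 5.7 in whole embryos, so that it was at least 9.48-fold lower. *hes7.1*, a gene of the Hairy/Enhancer-of-split family, had signals of 2.03, 2.62 and 2.57 against 5.56, 4.63 and 6.32. Without PNP array 2 or whole-embryo array 2, the number of lower members went from 4 to 2.

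**Figure D2:**
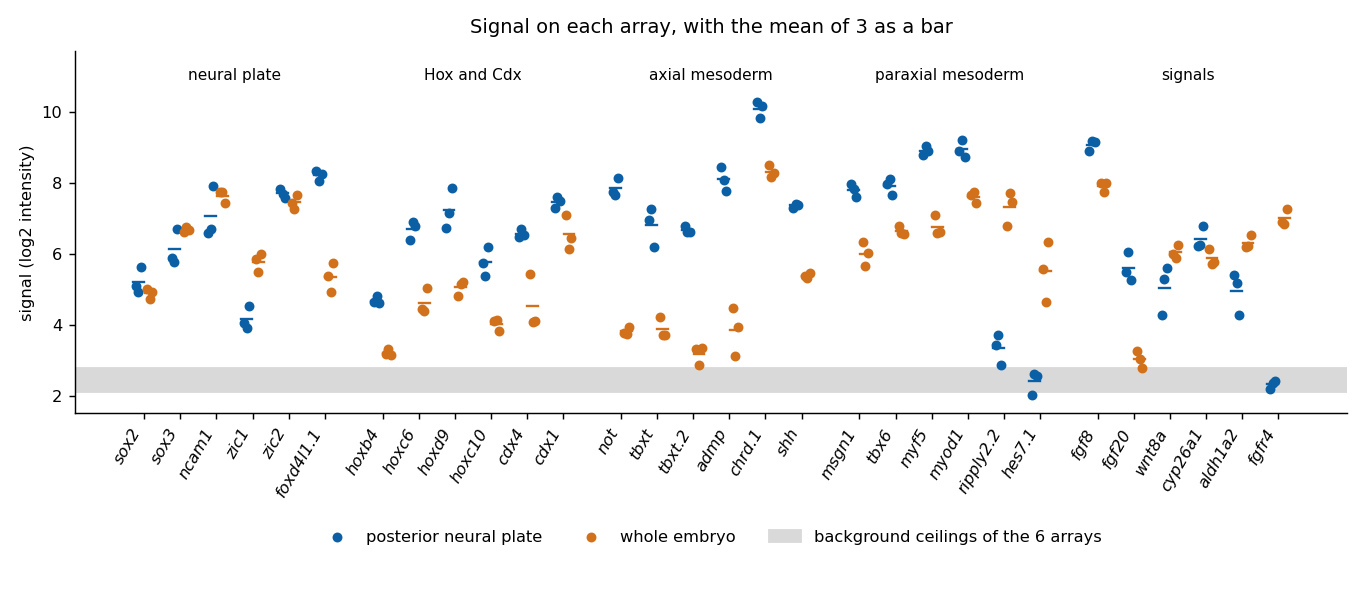
Log2 signal (vertical axis) of 30 genes on each of the 3 PNP arrays (blue) and 3 whole-embryo arrays (orange), grouped by role, with the mean of 3 as a bar and the background ceilings of the 6 arrays, 2.1 to 2.77, as a grey band. The 2 groups overlap for *sox2*, *sox3*, *ncam1* and *zic2* and lie far apart for *not*, *tbxt.2* and *admp*, while *fgfr4* and *hes7.1* reach the band in PNP.

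The Hox and Cdx list was shifted upward. Of 26 measured members (51 listed, 24 above the ceiling on at least 1 of the 6 arrays), 15 were higher in PNP, 1 was lower and 10 did not pass, with a median of 0.98, and 14 of the 15 lay above the ceiling on all 3 PNP arrays. Among 19 Hox genes 13 were higher. By paralogue group, which follows the order of the genes along a cluster from head to tail expression, 4 of 6 genes of groups 1 to 5 were higher (median 0.74), 6 of 7 of groups 6 to 9 (median 1.3) and 3 of 6 of groups 10 to 13 (median 0.71). The median was highest in the middle groups, and *hoxa13*, *hoxc12* and *hoxd13* lay above the ceiling on 0, 1 and 5 of the 6 arrays.

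*hoxd9*, a gene of the trunk and tail, was at 6.73, 7.13 and 7.84 in PNP and 4.81, 5.15 and 5.2 in whole embryos, 4.54-fold higher, with another probe set at 0.50 that did not pass. *hoxc6*, a gene of the trunk, was at 6.39, 6.90 and 6.78 against 4.43, 4.38 and 5.02, 4.22-fold higher. *hoxc10*, a lumbar gene in other vertebrates, was at 5.73, 5.38 and 6.2 against 4.1, 4.13 and 3.83, 3.36-fold higher. For all 3 the lowest PNP array lay above the highest whole-embryo array, which 21.7% of all genes showed. *hoxc5*, *hoxb4* and *hoxa7* rose 2.87-fold, 2.76-fold and 2.74-fold. *hoxb9*, a standard spinal cord marker in *Xenopus*, rose 2.13-fold, from 2.37, 2.27 and 2.2 to 3.01, 3.88 and 3.22. Its whole-embryo signals lay close to the ceiling, so the size of this fold depends on the background. *hoxa11* rose 2.55-fold on the probe set read. Its other probe sets were at 0.394 and 0.252, neither past the test, and at 0.389, which passed at signals under the ceiling. Of the weaker calls, *hoxc8* (1.3) did not pass without whole-embryo array 3, at 1.13, and *hoxd10* (1.07) did not pass without whole-embryo array 2, at 0.96. The anterior gene *hoxa2*, of the second rhombomere and below, rose 2.11-fold on the probe set read, while a probe set of its L copy was at -0.13. *hoxa3* did not pass at 0.22 and turned to -0.18 without PNP array 3, in which it was 6.96 against 5.74 and 5.82.

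The caudal genes *cdx4* and *cdx1* act upstream of the posterior Hox genes. *cdx4* was at 6.46, 6.68 and 6.54 in PNP and 5.42, 4.07 and 4.1 in whole embryos, a difference of 2.03 (limma, standard error 0.32, adjusted p = 0.000643), with whole-embryo array 1 above the other 2. *cdx1* was at 7.3, 7.59 and 7.47 against 7.09, 6.13 and 6.45, a smaller rise of 0.89 with the same array 1 nearest to PNP. *evx1*, the even-skipped homologue of the blastopore and tail, went the other way, at 4.81, 3.74 and 3.96 against 5.61, 4.88 and 4.78. Its difference of -0.92 did not pass (adjusted p = 0.0546) and passed as lower with PNP array 1 left out, which brought the number of lower members from 1 to 2. The lower member was *meis3*, a Hox cofactor of the hindbrain, at 5.58, 5.29 and 5.93 against 7.87, 8.04 and 7.94, a fall of 5.09-fold, with a probe set of its L copy at -0.35.

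**Figure D3:**
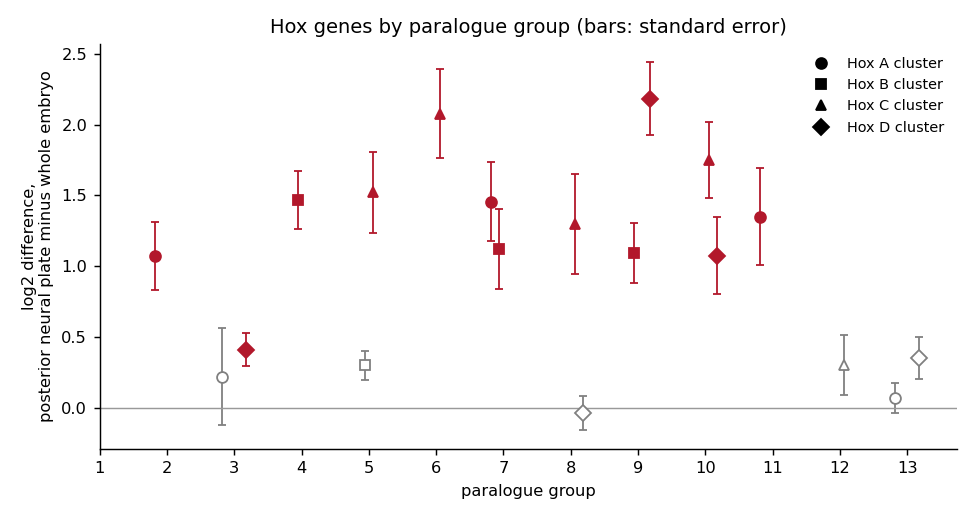
Log2 difference of PNP minus whole embryo (vertical axis, bars are standard errors from limma) of 19 Hox genes by paralogue group (horizontal axis), with the cluster as the symbol; red symbols passed an adjusted p under 0.05. The highest symbols are *hoxd9* at 2.18 and *hoxc6* at 2.08, and the genes of groups 12 and 13 lie between 0.07 and 0.35.

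Axial mesoderm gave the largest rises of the comparison. Of 46 measured members (76 listed, 43 above the ceiling on at least 1 of the 6 arrays), 18 were higher, 5 were lower and 23 did not pass, with a median of 0.34, and 16 of the 18 lay above the ceiling on all 3 PNP arrays. *admp*, a BMP-like ligand of the organizer and the notochord, was at 8.44, 8.07 and 7.76 in PNP and 4.46, 3.12 and 3.93 in whole embryos, a difference of 4.25 (limma, standard error 0.39, adjusted p = 6.77e-06) that ranked as the first among all genes. *not*, the notochord homeobox gene, was at 7.75, 7.66 and 8.13 against 3.77, 3.73 and 3.94, the second rise of all. Second probe sets rose as well, by 3.93 for *admp* and 2.97 for *not*. The brachyury genes followed. *tbxt.2* was at 6.77, 6.60 and 6.62 in PNP and 3.32, 2.88 and 3.34 in whole embryos, 11.2-fold higher, and *tbxt* was at 6.96, 7.25 and 6.2 against 4.22, 3.71 and 3.72, 7.55-fold higher, with PNP array 3 lowest.

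Among the secreted proteins of the midline, *nodal*, a TGF-beta ligand, was at 5.66, 4.84 and 4.30 in PNP and at 2.29, 2.15 and 2.31 in whole embryos, close to the ceiling, and rose 6.41-fold. *shh* (Sonic hedgehog), the ventralizing signal of notochord and floor plate, was at 7.3, 7.40 and 7.38 against 5.38, 5.32 and 5.44, a 3.94-fold rise with little spread in either group. *chrd.1* (Chordin), a BMP antagonist, was bright in both groups, at 10.27, 9.82 and 10.14 against 8.48, 8.16 and 8.28, 3.42-fold higher, and another of its probe sets rose by 3.00. The BMP antagonists *fst* (Follistatin) and *nog* (Noggin) were dim and rose 2.52-fold and 1.92-fold, and *lefty*, an inhibitor of Nodal, rose 1.65-fold. On the probe sets read, their PNP signals stayed under 4 on every array. Another probe set of *lefty* was at 4.33, 2.78 and 3.16 in PNP and was at least 2.38-fold higher. The protease gene *mmp21* was at 8.87, 9.08 and 9.09 in PNP and 5.81, 4.71 and 6.0 in whole embryos, 11.3-fold higher.

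The forkhead factor *foxa4* of notochord and floor plate rose 2.58-fold, from 3.68, 3.60 and 4.01 to 5.64, 5.0 and 4.76. The collagen genes of the notochord were split. *col9a1* was at 7.29, 7.53 and 7.46 against 5.08, 5.31 and 5.26, 4.63-fold higher, and *col9a2* rose 1.71-fold. *col2a1*, the major sheath collagen, was at 3.18, 3.14 and 4.0 in PNP and 3.68, 4.76 and 4.04 in whole embryos and did not pass at -0.72, although it passed as lower without PNP array 3 or whole-embryo array 1, at -1.0 and -0.96. *sox9*, which drives *col2a1* in cartilage and also marks the neural crest, fell 5.08-fold, from 5.62, 6.06 and 6.32 to 3.75, 3.24 and 3.97. The genes of the anterior axial mesoderm were not raised. *gsc* (Goosecoid), of the prechordal plate, was at 2.28, 2.54 and 2.79 against 3.57, 2.78 and 3.48 and did not pass at -0.74. *cer1* (Cerberus), a secreted antagonist of the anterior endomesoderm, was called lower at -1.14, a call lost without PNP array 2, at -1.05. *bambi*, a BMP pseudoreceptor that follows BMP activity, fell 5.0-fold, with another probe set at -0.23 that did not pass. Without PNP array 2 the number of lower members went from 5 to 3.

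Paraxial mesoderm held members that moved both ways. Of 50 measured members (72 listed, 47 above the ceiling on at least 1 of the 6 arrays), 16 were higher, 11 were lower and 23 did not pass, with a median of 0.19, and 15 of the 16 lay above the ceiling on all 3 PNP arrays. *myf5*, a myogenic bHLH factor of the early mesoderm, was at 8.77, 9.03 and 8.88 in PNP and 7.09, 6.59 and 6.61 in whole embryos, a rise of 4.37-fold (adjusted p = 2.35e-06 from limma). *myod1*, its relative, was at 8.89, 9.19 and 8.74 against 7.65, 7.74 and 7.42, 2.52-fold higher. *msgn1* (Mesogenin), a bHLH factor of the unsegmented mesoderm, was at 7.96, 7.82 and 7.59 against 6.33, 5.66 and 6.01, 3.46-fold higher. The T-box genes *tbx6* and *tbx6r* of the same tissue rose 2.41-fold and 3.46-fold. For these 5 genes every PNP array was above every whole-embryo array, which 21.7% of all genes showed.

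Further rises in this list were smaller. The ligand *wnt11b*, which guides convergent extension, was at 6.43, 6.78 and 6.86 against 4.99, 4.44 and 5.64, 3.18-fold higher. *hes7.2*, a Hairy-related repressor of the segmentation clock family, rose 2.36-fold and *rbm24*, an RNA-binding protein of muscle precursors, rose 2.25-fold, with its other probe sets higher by 0.63 and 0.55. The paraxial protocadherin gene *pcdh8.2* was at 9.04, 8.87 and 8.58 against 8.21, 8.09 and 8.43, a difference of 0.58 that passed with all arrays but not without PNP array 1 (0.48) or whole-embryo array 2 (0.51).

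The lower members include genes of segmentation and of mesoderm farther forward or more lateral. *ripply2.2*, a repressor that ends the presomitic programme at the somite boundary, was at 3.42, 3.72 and 2.86 in PNP and 6.79, 7.70 and 7.44 in whole embryos, 15.7-fold lower. Its paralog *ripply2.1* was not above the ceiling in any PNP array and was at least 2.38-fold lower. *fgfr4*, an FGF receptor, was not above the ceiling in any PNP array, at 2.19, 2.37 and 2.42, against 6.90, 6.84 and 7.25, at least 22.5-fold lower, and both of its other probe sets fell, by 1.45 and 2.03. The chemokine receptor gene *cxcr4* was at 3.46, 3.46 and 4.27 against 6.0, 7.12 and 6.96, 7.81-fold lower. *pcdh8l*, a protocadherin, fell 4.51-fold, and *snai2*, a repressor of the neural crest and mesoderm, fell 2.83-fold with another probe set at 0.02. *tbx1*, a T-box gene of head mesoderm, was called lower at -1.22, and with the mean of its probe sets it was not.

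Against whole embryos, genes of the contractile apparatus did not follow *myf5* and *myod1*. Of 42 measured members of the muscle list 4 were higher (9.5%), 8 were lower (19%) and 30 did not pass, with a median of -0.07. The shares of all genes were 10.7% and 13.4%. Against EF, 9 members were higher and 0 lower, where 11.2% and 15.1% of all genes were. Against LE, 12 were higher and 1 lower, where 14.6% and 14.0% of all genes were. *tpm1* (tropomyosin) was at 5.95, 6.71 and 7.16 in PNP and 7.89, 9.75 and 8.65 in whole embryos, 4.45-fold lower. *tnnt3* and *tnni2*, of the troponin complex, fell 4.41-fold and 4.49-fold, with another probe set of *tnni2* at -0.45 that did not pass. *des.1* (desmin) fell 5.80-fold, with a probe set of its S copy at -0.60 that did not pass, and *ckm* (muscle creatine kinase) fell 2.78-fold. The other probe sets of *ckm* passed as lower at -2.02 and -1.75. From LE the probe set read differed by -1.76, past the test, and the others by 0.83 and 0.91, not past it. *chrng*, a subunit of the embryonic acetylcholine receptor, was at 2.88, 2.96 and 3.52 against 3.98, 6.38 and 4.70 and fell 3.73-fold. *mylpf*, a myosin light chain, was called lower at -1.74, a call lost without PNP array 1 or 2 or whole-embryo array 2, at -1.61, -1.51 and -1.35. *myl1*, another light chain, did not pass at 0.43 on the probe set read, its S copy passed as lower at -2.13, and the mean of its probe sets was -0.53. In *tpm1*, *tnnt3*, *tnni2*, *des.1*, *ckm*, *chrng* and *mylpf* whole-embryo array 2 was the highest of its group.

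The tailbud list had the largest number of higher members. It shares *tbxt*, *tbxt.2*, *not*, *foxd4l1.1*, *msgn1*, *tbx6* and the Cdx genes with the lists above. Of 53 measured members (73 listed, 48 above the ceiling on at least 1 of the 6 arrays), 27 were higher, 4 were lower and 22 did not pass, with a median of 0.60, and 25 of the 27 lay above the ceiling on all 3 PNP arrays. Of the ligands, *fgf20* was at 5.47, 6.05 and 5.26 in PNP and 3.26, 3.05 and 2.79 in whole embryos, 5.91-fold higher. *fgf8*, an FGF ligand of the blastopore and tailbud, was at 8.89, 9.17 and 9.15 against 7.99, 7.73 and 7.98, 2.25-fold higher, with its other probe sets higher by 0.90 and 2.27. *gdf3*, a TGF-beta family ligand, was at 6.49, 6.48 and 5.48 against 4.36, 3.13 and 3.55, 5.53-fold higher, with PNP array 3 lowest.

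Further members of the tailbud list were transcription factors and an RNA-binding protein. *vegt*, a T-box gene of the mesoderm around the blastopore, was at 9.19, 9.03 and 8.39 in PNP and 7.73, 5.7 and 7.21 in whole embryos, 3.97-fold higher, with array 2 of the whole embryos far below the others. *sp5l*, a zinc-finger target of Wnt signalling, was at 9.21, 8.68 and 8.75 against 7.42, 6.70 and 7.12, 3.49-fold higher. *sall3*, a spalt zinc-finger gene, rose 3.81-fold, and *lin28b*, an RNA-binding protein that blocks let-7 microRNAs, was at 5.84, 5.6 and 5.98 against 3.98, 3.87 and 3.60, 3.98-fold higher. *bmp4*, a ventral ligand, was among the lower members, at 3.96, 3.65 and 3.79 against 5.54, 5.42 and 5.34, 3.1-fold lower.

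Genes of the signals that pattern the posterior axis moved both ways. Of 66 measured genes of FGF, Wnt and retinoic acid signalling, 20 were higher, 8 were lower and 38 did not pass, with a median of 0.19. Among all genes 10.7% were higher and 13.4% lower. Of 7 measured FGF ligands, *fgf8*, *fgf9* and *fgf20* were higher, and *fgf2*, *fgf3*, *fgf4* and *fgf10* did not pass. Among genes that FGF signals are known to induce, *egr1*, an immediate early gene, was at 9.19, 9.24 and 9.64 in PNP and 7.56, 6.87 and 8.03 in whole embryos, 3.65-fold higher, and the feedback inhibitors *spry2* and *dusp6* rose 2.38-fold and 1.59-fold. Another probe set of *spry2* was at 0.60 and did not pass. The ETS factors *etv1* and *etv4* rose 2.29-fold and 1.97-fold. The receptor *fgfr4*, given above, fell.

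In the Wnt pathway, *wnt5a*, a ligand of cell movement, was at 3.70, 3.83 and 4.08 against 3.33, 3.34 and 2.92 and rose 1.59-fold, a call lost without whole-embryo array 3 (0.53). *wnt8a*, a ligand of the blastopore margin, was at 4.26, 5.29 and 5.58 against 6.0, 5.88 and 6.23, with no overlap of the groups, and did not pass at -0.99 (limma, standard error 0.48, adjusted p = 0.162). *wnt3a*, a tailbud ligand, lay under the ceiling on all 6 arrays, at 1.98 to 2.07 in PNP and 1.95 to 2.13 in whole embryos, so no difference was detectable at these signals. *axin2*, a feedback target, had a difference of 0.52 that did not pass (adjusted p = 0.0797) and passed as higher after median centring (0.67), after quantile normalization (0.65) and without whole-embryo array 3 (0.67). The secreted antagonists split, since *sfrp1* was at 9.08, 9.16 and 8.40 against 7.34, 5.95 and 7.07, 4.27-fold higher, and *sfrp2* was at 5.15, 5.29 and 5.27 against 7.51, 8.93 and 8.30, 8.04-fold lower. *prickle1*, of the planar polarity branch, was at 8.93, 9.07 and 9.23 against 7.32, 7.34 and 7.55, 3.19-fold higher.

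Genes of retinoic acid synthesis were among the lower ones. *aldh1a2* (Raldh2), the main synthesizing enzyme of the trunk mesoderm, was at 5.4, 5.17 and 4.26 in PNP and 6.19, 6.21 and 6.54 in whole embryos, 2.58-fold lower, with another probe set at -0.21. *rdh10*, which carries out the preceding step, fell 6.06-fold, from 7.71, 7.55 and 7.91 to 5.35, 5.17 and 4.85. Of the degrading enzymes, *cyp26c1*, a gene of the anterior hindbrain and head, fell 17.6-fold, from 7.12, 6.99 and 6.63 to 2.65, 2.69 and 2.98. *cyp26a1*, which is expressed at both ends of the embryo, was at 6.2, 6.25 and 6.78 against 6.13, 5.72 and 5.77 and did not pass at 0.54 (adjusted p = 0.08), while a probe set of its L copy passed as higher at 1.64.

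The same genes were also set against the other dissected pieces, of which EF holds underlying mesendoderm besides neural plate. The 3 comparisons share the PNP arrays, so their values are given side by side and are not independent of each other. The 6 main lists (neural plate, primary neurogenesis, Hox and Cdx, axial mesoderm, paraxial mesoderm and tailbud) hold 221 measured genes. Of these, 76 were higher and 34 lower in PNP than in whole embryos (10.7% and 13.4% of all genes). Against EF, 81 were higher and 39 lower (11.2% and 15.1% of all genes), and against LE, 80 were higher and 24 lower (14.6% and 14.0% of all genes). In all 3 comparisons 62 of the 221 were higher in PNP, as were 333 of all 6505 genes (5.12%).

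The difference of *myf5* was 2.13 from whole embryos, 6.37 from EF and 6.39 from LE, that of *hoxd9* 2.18, 4.82 and 5.18, and that of *mmp21* 3.50, 6.35 and 6.63. *foxd4l1.1* differed by 2.87, 3.29 and 6.17. Of the notochord and organizer genes, *chrd.1* was 1.70 higher in PNP than in EF and 6.2 higher than in LE, *shh* 1.62 and 4.32 higher and *foxa4* 1.86 and 1.54 higher. Of the anterior Hox genes, *hoxa2* and *hoxa3* differed by -0.00 and -0.16 from LE, neither past the test, and were 2.38 and 3.31 higher than in EF, while *hoxb4* and *hoxc5* were 1.04 and 1.45 above LE. General neural genes were lower in PNP than in EF and higher than in LE: *sox3* by -1.76 and 0.98 and *ncam1* by -1.86 and 1.66, each past the test, and *sox2* by -0.65, which did not pass (adjusted p = 0.23 from limma), and 1.65, which did. The segmentation gene *ripply2.2* was lower in PNP than in either piece, by -3.16 and -4.11. *hes7.1*, of the paraxial mesoderm and primary neurogenesis lists, was far lower than in EF, at -6.46, and differed from LE by -0.01. A probe set of its L copy was at -3.71 from EF and -0.22 from LE, the latter not past the test. *aldh1a2* was 1.36 higher in PNP than in EF and 3.58 lower than in LE, and *vegt*, at 5.22 above EF, was not called against LE at 0.95.

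**Figure D4:**
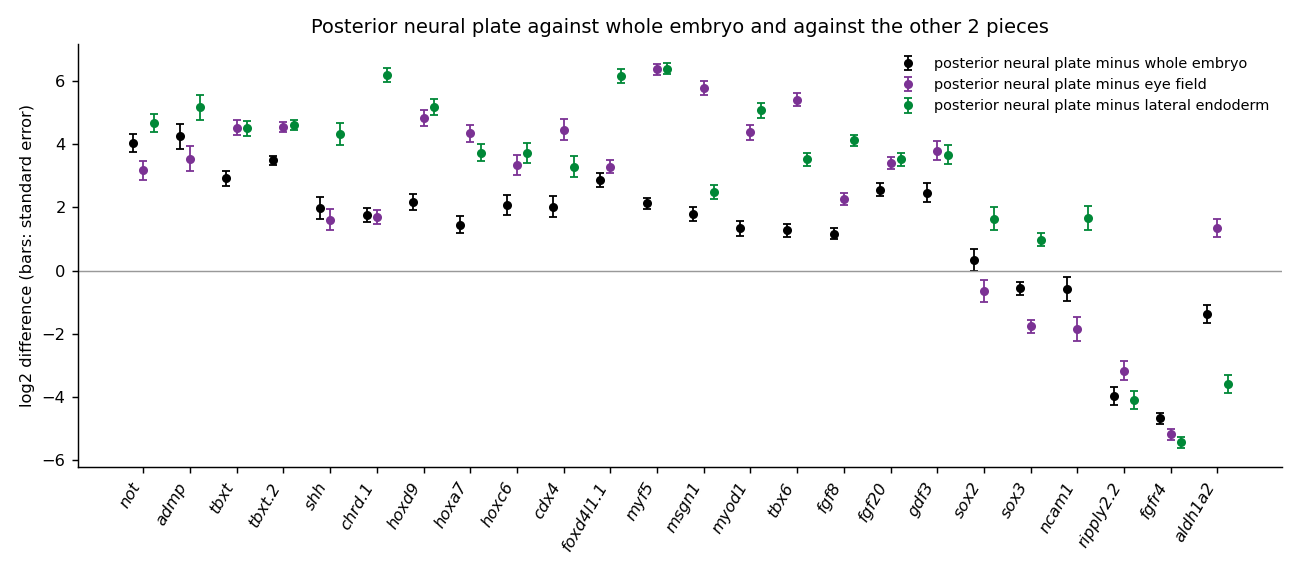
Log2 difference (vertical axis, bars are standard errors from limma) of 24 genes for PNP minus whole embryo (black), minus EF (purple) and minus LE (green), which share the 3 PNP arrays. *myf5* lies at 2.13, 6.37 and 6.39, *sox3* at -0.55, -1.76 and 0.98, and *aldh1a2* at -1.37, 1.36 and -3.58.

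Beyond the lists, the 15 largest rises included genes outside them. *rrbp1*, a ribosome-binding protein of the endoplasmic reticulum, was at 7.95, 7.66 and 7.48 in PNP and 4.18, 4.37 and 3.42 in whole embryos, 13.1-fold higher, with a probe set of its L copy higher by 2.37. *loxl1*, a lysyl oxidase that crosslinks matrix, rose 8.1-fold, the kinase genes *nek6* and *pak1* rose 8.12-fold and 7.65-fold, and *vopp1* rose 11.0-fold, from 2.03, 2.64 and 2.34 to 5.90, 6.05 and 5.41. These 5 genes were 3.13 to 4.13 above EF and 3.41 to 3.72 above LE.

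For some others of the 15 the differences from EF and LE were smaller than that from whole embryos. These include *pdlim5*, *sbk1l*, *sptlc1* and *XB5897201*, of which the first 3 are described here. *pdlim5*, a LIM protein of the cytoskeleton, was at 8.21, 7.86 and 9.20 in PNP and 4.84, 4.90 and 5.0 in whole embryos, 11.4-fold higher, but 1.05 above EF and 0.89 above LE, the latter not past the test. *sbk1l* was 3.40 above whole embryos and 0.78 and 0.57 above EF and LE, and *sptlc1*, a subunit of the first enzyme of sphingolipid synthesis, was 3.26, 0.88 and 0.21 above them, none of these last 4 past the test. Of the other probe sets of *pdlim5*, 1 passed against both, at 0.90 above EF and 0.77 above LE. Their other probe sets disagreed in the difference from whole embryos, at -0.04 to 2.70 for *pdlim5*, -1.80 to 2.07 for *sbk1l* and -0.22 to 3.12 for *sptlc1*. PNP array 3 was the highest of its group for *pdlim5*, *sbk1l* and *sptlc1*.

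The 10 largest falls were mostly of epidermal, cement gland and endodermal genes. The keratin gene *krt12.4* fell from 10.41, 10.73 and 10.52 in whole embryos to 2.56, 2.74 and 2.87 in PNP, a difference of -7.83, and *krt12.5* and the lectin gene *itln1* of the epidermis fell by 7.45 and 7.16. The cement gland genes *ag1* and *agr2* fell by 6.06 and 5.82, the ionocyte-type transporter gene *slc26a4l* by 5.83, the endodermal gene *darmin* by 5.80 and *vill*, *krt70* and *krt7* by 5.76, 5.65 and 5.63. *darmin* was not above the ceiling in any PNP array and was at least 42.7-fold lower. *krt70* and *krt7* kept log2 signals of 4.54 to 6.15 in PNP. The head genes *otx2* and *otx1* fell by 4.63 and 3.92, and lay above the ceiling on 2 of 3 PNP arrays each. Other probe sets of *otx2* were at -0.25 and -0.24 and did not pass. Of 38 measured epidermal genes 26 were lower and the other 12 did not pass (median -2.01), and of 36 endodermal genes 2 were higher, 13 were lower and 21 did not pass (median 0.10). The forebrain and anterior neural plate list had 5 higher, 14 lower and 15 not passing (median -0.44), and the hindbrain and midbrain list 5, 6 and 8 (median 0.17). Over all genes, 10.7% were higher and 13.4% lower by the rule used for these lists.

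The arrays of a group differed from each other along the same lists. In PNP array 3 the neural plate genes were higher than in the other 2 PNP arrays, by a median of 0.35, over the 23 members above the ceiling on all 6 arrays, and it was the highest of the 3 for 14 of them. The Hox and Cdx genes were higher there by 0.46 and the muscle genes by 0.47. Hindbrain and midbrain genes were higher by 0.29 and crest and plate border genes by 0.24. Endodermal genes stood at -0.29 and those of ciliated cells and ionocytes at -0.20. The axial mesoderm and tailbud lists hardly moved, with medians of 0.03 and 0.01. Within them, *tbxt*, *nodal* and *gdf3* were lowest in PNP array 3, whereas *not* and *mmp21* were highest there. Hox and Cdx genes were lowest in PNP array 1, which held the lowest value for 12 of 17 members and a median of -0.45 from the other 2. Of the whole embryos, array 2 was highest for 16 of 19 muscle genes, by a median of 0.73, and lowest for 26 of 38 tailbud genes, by a median of -0.25, whereas array 1 was lowest for 12 of 19 muscle genes and highest for 23 of 38 tailbud genes. The muscle and tailbud genes thus differed in opposite directions between whole-embryo arrays 1 and 2, and the paraxial and axial lists less so. Array 2 was also lowest for 13 of 23 neural plate genes (median -0.25) and 8 of 10 endodermal genes (median -0.62). Genes of ciliated cells and ionocytes and housekeeping genes were higher in it, by 0.19 and 0.14. No share over all genes was taken for these counts, so the shifts are not shown to be particular to these lists. What these array differences stem from was not tested.

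**Figure D5:**
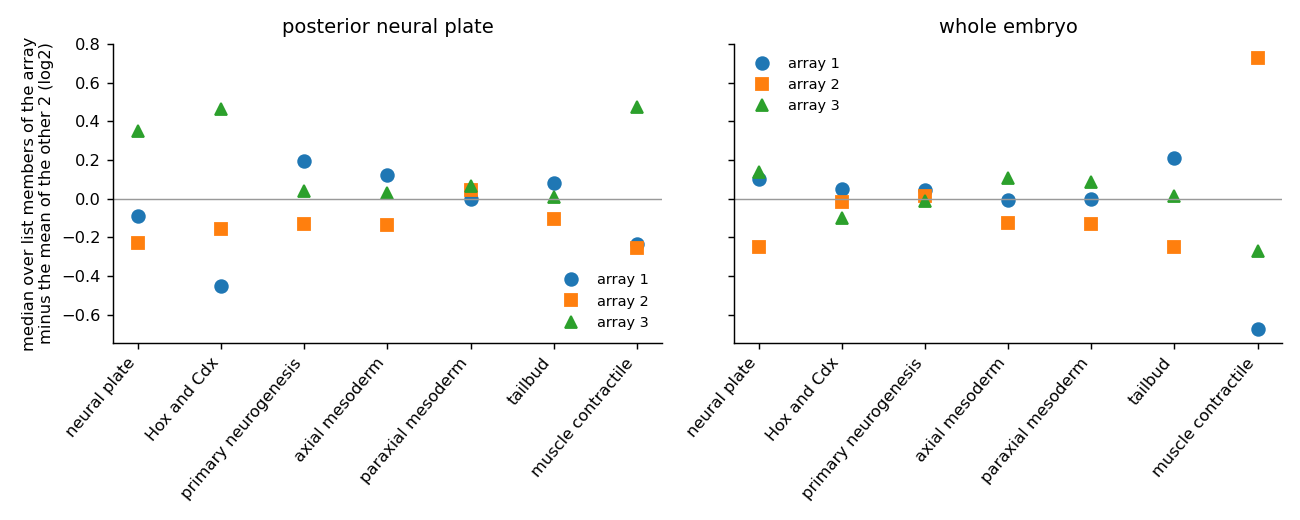
Median over list members of each array's log2 signal minus the mean of the other 2 arrays of its group (vertical axis), for 7 gene lists (horizontal axis), in PNP (left) and whole embryos (right). Array 3 of PNP stands at 0.35, 0.46 and 0.47 for the neural plate, Hox and Cdx and muscle lists, and array 2 of the whole embryos at 0.73 for muscle and -0.25 for tailbud.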

How the data were processed

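RNA was hybridised to Affymetrix *X. laevis* arrays. The authors processed the scans by RMA in GeneSpring GX, and the deposited table holds 1 linear intensity per probe set and array, not divided by whole embryos. Its floor lies lower than RMA commonly leaves it, so folds near the floor depend on a background step that is not settled here. Arrays have no depth, and 3 per group limit the precision. Log2 was taken of the intensities as they stand, without offset or filter.

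Of 15611 probe sets, 120 controls were left out. The platform annotation gives 1 symbol to 9304 tested probe sets, several to 195 and none to 5992, and 9227 of the first were matched to the v10.1 gene table by identifier. With L and S copies joined, 6505 genes were read, each from the probe set with an accession of the study's tables (24 matched) or else from its brightest probe set by mean signal. Probe sets ending in _x_at, _s_at or _a_at, among them those of *sox2*, *hoxc6*, *hoxa11*, *elavl4*, *myod1*, *myl1*, *tpm1*, *tnni2*, *rbm24*, *pdlim5*, *sbk1l*, *krt70* and *krt7*, may hybridise with several transcripts.

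limma 3.58.1 in R 4.3.3 (lmFit and eBayes) was fitted to the 12 arrays of the 4 groups, with Benjamini-Hochberg adjustment over 15491 probe sets. Where no array of the lower group passed the ceiling, the fold is given as "at least", with that group's signals raised to the ceiling wherever they lay under it. The fit was tested on simulated data, with changes placed in probe sets of above-median signal. It recovered 18% of changes of 1.5-fold, 52% of 2-fold, 86% of 3-fold and 92% of 4-fold. Only 50 of 15491 probe sets were changed at each fold, far fewer in all than were called in the data. The adjustment depends on that number, so these rates need not hold for the data. A gene that did not pass may still differ by 2-fold. The members and the 16 lists were chosen with earlier results of these data known, and the ceiling with the values in view. Named were the defining genes, the 6 largest called changes of each main list and the 3 of each other list, the 15 largest rises and the 10 largest falls. Not every gene of this rule is named, and other genes were chosen after their values were seen. *foxa2*, *hoxd1* and *pcdh8* have no probe set with a single symbol and were not analysed here. The 3 arrays of a group are separate samples by the labels. Alternatives are in the closing section. Summaries used Python 3.11.15, pandas 2.3.3, numpy 2.4.6 and matplotlib 3.10.9.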

Additional observations from a re-analysis of the deposited data

How the results depend on the processing

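Besides the fit as reported, the counts were redone with quantile normalization, with median centring, without dim probe sets, with probe sets averaged within a gene, with array weights, with a trend in eBayes, with the replicate number as a block, with only PNP and whole embryos in the fit, with the methods' t-test, with no fold limit and without each array. Added after seeing the data was a count of called members above the ceiling in the higher group, in which no count moved by over 1.5 times. Of the 142 genes given with a difference, 125 passed the test. All 125 kept their direction, 111 of them passed under each alternative other than the t-test, and 47 did not pass the t-test, which takes no spread from other probe sets. Calls that were also lost elsewhere were those of *cer1*, *chrng*, *elavl4*, *gapdh*, *gmnn*, *hoxa2*, *hoxc8*, *hoxd10*, *mylpf*, *pcdh8.2*, *pygm*, *snap25*, *tbx1* and *wnt5a*. For the movements below the cause was not tested.

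The methods' t-test left 184 probe sets higher and 552 lower, and without a fold limit 1585 and 1869 were called. Under the t-test the higher and lower members were 2 and 5 for the neural plate, 1 and 1 for primary neurogenesis, 11 and 2 for axial mesoderm, 9 and 5 for paraxial mesoderm and 14 and 2 for the tailbud, with 5 higher for Hox and Cdx, and 53 members of the main lists were higher than in EF. The fit of 2 groups only gave 4 higher for the neural plate, 3 higher and 2 lower for primary neurogenesis and 3 lower for axial mesoderm. Median centring gave 10 higher and 2 lower for primary neurogenesis, and array weights and quantile normalization 2 lower. For Hox and Cdx the trend, the dim filter and the replicate block gave 2 lower in place of 1. With an array left out, lower members ranged from 2 to 4 for primary neurogenesis (2 without PNP or whole-embryo replicate 2), from 1 to 2 for Hox and Cdx (2 without PNP replicate 1) and from 3 to 5 for axial mesoderm (3 without PNP replicate 2). Differences that had not passed changed sign for *neurog2*, to 0.048 after median centring and 0.015 with the mean of probe sets, for *wnt3a*, to 0.11 after median centring, for *myl1*, to -0.53 with the mean of probe sets, and for *hoxa3*, which ranged from -0.18 to 0.44 with an array left out.

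With the replicate number as a block, 522 probe sets were higher and 1046 lower. Deviations from the group means of arrays with the same number in PNP and whole embryos correlated at 0.12, -0.03 and 0.06, so the numbers were not taken to pair the samples, and not every array correlated best with its own number.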

Other observations

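Outside the axial tissues, genes of the neural crest and plate border were lower in PNP. Of 31 measured members 2 were higher, 17 were lower and 12 did not pass, with a median of -0.64. For this and the next 2 lists, the shares of all genes were 10.7% higher and 13.4% lower. *id2*, an inhibitor of bHLH factors, was at 2.50, 2.42 and 2.43 in PNP and 7.54, 8.01 and 7.32 in whole embryos, *ets1* was 24.5-fold lower with 1 of its other probe sets at 0.01, and *dlx3*, a homeobox gene of non-neural ectoderm, was not above the ceiling in any PNP array and was at least 18.8-fold lower. The list of lateral and ventral mesoderm and blood had 5 higher and 19 lower of 49, and a median of -0.49, with *gata6* 46.6-fold and *gata2* 7.77-fold lower. Another probe set of *gata6* was at -0.30 and did not pass. The BMP ligand *bmp7.1* fell 3.56-fold and *ventx3.2*, a ventral homeobox gene downstream of BMP, fell 2.68-fold. Of 28 genes of ciliated cells and ionocytes 12 were lower and the other 16 did not pass (median -0.33), among the former the carbonic anhydrase gene *ca12*, 19.6-fold.

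Other genes, chosen after their values were seen, were also higher in PNP. *tdgf1.3*, a coreceptor of Nodal ligands, was at 8.24, 7.98 and 7.51 in PNP and 6.41, 3.19 and 5.83 in whole embryos, 6.82-fold higher, with whole-embryo array 2 far below the others, as for *vegt*. *rfk*, riboflavin kinase, was at 8.59, 8.66 and 8.18 against 6.59, 5.83 and 5.54, and was 4.21 above EF and 3.41 above LE. Another probe set of *rfk* was at -0.26 from whole embryos and did not pass. The ephrin receptor gene *epha2* rose 3.16-fold. In the glycogen phosphorylase gene *pygm*, a member of the muscle list, the rise of 1.21 was lost without PNP array 1 (1.09) or whole-embryo array 3 (1.08) and with the mean of its probe sets (0.22). Of 22 housekeeping genes 2 were higher, 1 was lower and 19 did not pass (median -0.12), where 10.7% of all genes were higher and 13.4% lower. *gapdh* was higher by 1.03, from 3.83, 3.81 and 3.53 to 5.36, 4.83 and 4.08, and the histone gene *h4c4* by 1.48.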
